A study of Sus scrofa with 10 samples.

Results

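Core circadian clock genes were described in the hypothalamus of pigs that diverge in growth and fatness. The set was defined by gene name with no cut on the measured values, though earlier results of these data were known. It held 10 names, ARNTL, CLOCK, NPAS2, PER1, PER2, PER3, CRY1, CRY2, DBP and CIART, of which 9 had a row in the table. DBP had 2 rows, so the set comprised 10 of the 25009 gene rows. RNA was sequenced from the hypothalamus of 10 Iberian x Landrace backcross pigs, 5 of high and 5 of low growth and fatness. Breed cross and tissue were the same in both groups, and the labels name no treatment. The hour of tissue collection, the age and the sex of the animals are not given in the sources used here. Each group of 5 pigs was represented by 1 FPKM value per gene row, a fragment count scaled for transcript length and library size, with the authors' lower and upper confidence bounds. There was therefore no replicate check, and no test across animals could be made. How deeply each library was sequenced is unknown.

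The mammalian circadian clock is a feedback loop of transcription that runs in nearly every cell. CLOCK, or its paralogue NPAS2, pairs with ARNTL (also called BMAL1) and activates genes that carry E-box elements, among them the PER and CRY genes. PER and CRY proteins return to the nucleus and repress that activation, and CIART adds a further repressor. DBP is a transcription factor under the same control that passes the rhythm on to genes with D-box elements. The suprachiasmatic nucleus (SCN) of the hypothalamus is the central pacemaker and is set by light. Transcripts of the PER genes, CRY1, ARNTL and DBP rise and fall over the day in many tissues.

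All 9 names with a row were above the filter, a mean over the groups of 1 FPKM or more, in all 10 rows. Their levels were moderate, from 2.12 to 16.7 FPKM for the high group and from 1.82 to 11.6 FPKM for the low group. PER1 had the highest value in both groups and PER2 the lowest. The median of the 10 rows was 5.58 FPKM for the high group and 6.20 FPKM for the low group, against 7.09 and 7.65 FPKM over all 15156 tested rows. Intervals of the members were about as wide as those of other rows, with a median half-width of 38.3% of the value for the high group and 44.7% for the low group. Over all tested rows these medians were 39.3% and 45.03%.

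**Figure D1:**
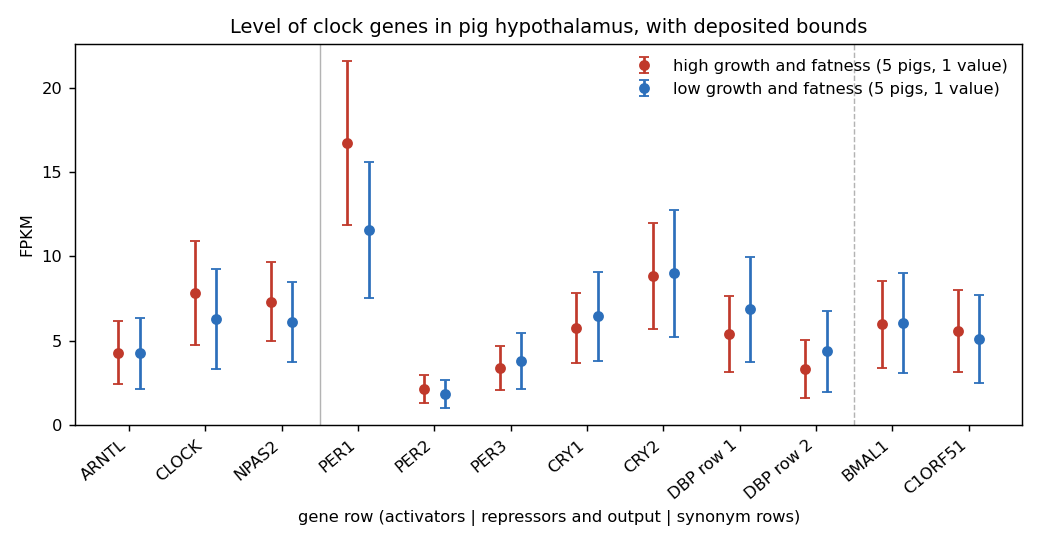
FPKM (vertical axis) of each clock gene row in the high group (red) and the low group (blue); points are the authors' group values and bars their deposited bounds. The bars of the groups overlap for each row shown, and PER1 stands highest at 16.7 and 11.6 FPKM.

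For 0 of the 10 clock rows were the deposited intervals of the groups apart, where 0.462% of all tested rows (70 of 15156) had intervals that did not overlap. That share consists of 0.0264% of rows higher for the high group and 0.435% higher for the low group. A share that small would leave a set of 10 rows without such a row in most cases, so this count says little about the clock. Likewise 0 of the 10 rows reached an FPKM ratio of 1.5 in either direction, against 9.22% of all tested rows, 2.78% higher for the high group and 6.44% for the low group. By direction, 5 rows were higher for the high group and 5 for the low group, where 32.0% and 68.0% of all tested rows were. Differences below are on the log2(FPKM + 1) scale, high minus low, where low genes appear to change less than they do. The median difference of the 10 clock rows was -0.0054, and that of all tested rows was -0.10. The shift of all rows was removed by median-of-ratios scaling and by quantile normalization. The rows past a ratio of 1.5 then split nearly evenly, 664 higher for the high group and 654 for the low group after the first and 590 and 668 after the second, against 421 and 976 as deposited.

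The activators were CLOCK, NPAS2 and ARNTL, each a transcription factor with a DNA-binding basic helix-loop-helix and PAS domains. CLOCK (ENSSSCG00000008909, chromosome 8, 58659341 to 58698260) was at 7.84 FPKM (bounds 4.75 to 10.9) for the high group and 6.30 FPKM (3.33 to 9.27) for the low group. NPAS2 (ENSSSCG00000008171, chromosome 3, 55844995 to 56034828), which can take the place of CLOCK and is prominent in the mammalian forebrain, had values of 7.31 FPKM (4.97 to 9.65) against 6.11 FPKM (3.74 to 8.48). Both values were higher for the high group, at log2 differences of 0.28 and 0.23, and their intervals overlapped between the groups. The FPKM ratio of high to low was 1.24 for CLOCK, and the bounds allow ratios from 0.512 to 3.29. For NPAS2 the ratio was 1.20, with 0.587 to 2.58 allowed. CLOCK and NPAS2 were present at nearly the same level per length, with a ratio of CLOCK to NPAS2 of 1.07 for the high group and 1.03 for the low group. Coordinates here and below are on build Sscrofa10.2 as the table gives them, and whether starts count from 0 or 1 is not recorded there.

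ARNTL, the shared partner of CLOCK and NPAS2, was nearly equal in the groups. Its row (ENSSSCG00000013396, chromosome 2, 49291903 to 49316939) was at 4.29 FPKM (2.43 to 6.16) for the high group and 4.25 FPKM (2.16 to 6.35) for the low group, a log2 difference of 0.01. The next row on the chromosome, starting 697 bases further on, is named BMAL1 (ENSSSCG00000013397, 49317636 to 49340140), the synonym of ARNTL. A single gene in the reference table carries both names, so ARNTL reads may be divided over these neighbouring rows and the level of each is uncertain. The BMAL1 row was at 5.96 FPKM (3.37 to 8.55) against 6.03 FPKM (3.06 to 9.005), a log2 difference of -0.01 that changed sign under both scalings. Neither row separated the groups. Bounds allow ratios of high to low from 0.383 to 2.85 for the ARNTL row, so a sizeable difference in either direction remains possible.

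Among the repressors, the PER genes had the widest range of levels. PER1, which in mammals is induced within the SCN by light, was at 16.7 FPKM (11.9 to 21.6) for the high group and 11.6 FPKM (7.54 to 15.6) for the low group. Its row (ENSSSCG00000017983) lies on chromosome 12, 55836901 to 55851908. The intervals overlapped, the log2 difference was 0.50 and the FPKM ratio of high to low was 1.45, with 0.761 to 2.86 allowed by the bounds. This was the largest difference of the set, and 97.9% of all tested rows had a lower (more negative) one. After median-of-ratios scaling the ratio was 1.57 and after quantile normalization 1.58, so PER1 passed the 1.5-fold mark under both scalings and missed it in the deposited values. Past that mark in either direction were 1318 of 15150 tested rows after the first scaling and 1258 of 15142 after the second.

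PER2, whose protein nucleates the repressive complex with CRY, was the lowest row. It was at 2.12 FPKM (1.31 to 2.93) for the high group and 1.82 FPKM (0.990 to 2.66) for the low group, on chromosome 15 (ENSSSCG00000016338, 152264831 to 152286818). PER3, a paralogue with a lesser role in the loop of mice, was at 3.38 FPKM (2.09 to 4.68) against 3.81 FPKM (2.15 to 5.47). Its row (ENSSSCG00000028572) lies on an unplaced scaffold. PER2 had a log2 difference of 0.14 and PER3 of -0.13, so the PER genes had no common direction, and their intervals overlapped between the groups. After median-of-ratios scaling PER2 was at 0.22 and PER3 at -0.04, and after quantile normalization at 0.19 and -0.07. The negative sign of PER3 thus rests on a small difference. PER1 made up 75.2% of the summed PER level per length (22.2 FPKM) for the high group and 67.2% (17.2 FPKM) for the low group. The ratio of PER1 to PER2 was 7.89 for the high group and 6.34 for the low group, and in each group the intervals of these paralogues did not overlap.

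The cryptochromes, which bind and silence the CLOCK and ARNTL complex directly, were nearly equal in the groups. CRY1 (ENSSSCG00000000164, chromosome 5, 13127781 to 13215788) was at 5.76 FPKM (3.69 to 7.82) for the high group and 6.44 FPKM (3.80 to 9.07) for the low group. CRY2 (ENSSSCG00000013270, chromosome 2, 17893140 to 17916392) had values of 8.84 FPKM (5.69 to 11.99) against 8.99 FPKM (5.24 to 12.7). The log2 difference was -0.14 for CRY1 and -0.02 for CRY2, and the intervals overlapped. CRY2 turned to 0.08 after median-of-ratios scaling and to 0.07 after quantile normalization, so it has no direction that holds. CRY1 was at -0.04 and -0.05 after these scalings, so its negative sign rests on a small difference. The bounds allow ratios of high to low from 0.407 to 2.06 for CRY1 and from 0.447 to 2.29 for CRY2. CRY2 exceeded CRY1 by a ratio of 1.54 for the high group and 1.40 for the low group, within their bounds.

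DBP, the output factor of the set, had a lower FPKM value for the high group in both of its rows. The first (ENSSSCG00000003148, chromosome 6, 49734282 to 49740069) was at 5.41 FPKM (3.16 to 7.66) for the high group and 6.85 FPKM (3.71 to 9.99) for the low group. The second (ENSSSCG00000024294, 49653899 to 49659029) lies 75253 bases away and was at 3.30 FPKM (1.58 to 5.02) against 4.37 FPKM (1.97 to 6.78). Their log2 differences were -0.29 and -0.32, with intervals that overlapped between the groups. These differences were smaller after median-of-ratios scaling, at -0.19 and -0.23, and after quantile normalization, at -0.20 and -0.26. The reference table, on build Sscrofa11.1, holds 1 DBP gene, so the rows may share the reads of a single gene and their agreement is no repeat measurement. Summed over both rows, DBP was at 8.71 FPKM for the high group and 11.2 FPKM for the low group, a log2 difference of -0.33 and a ratio of 0.776.

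CIART had no row under that name. A row named C1ORF51, the earlier human symbol of CIART, lies on chromosome 4 (ENSSSCG00000006655, 108088710 to 108091789). Of the 9 named rows among its 10 nearest neighbours, 6 carry symbols that also lie near CIART in the reference table, among them PRPF3 and PLEKHO1. The C1ORF51 row was at 5.55 FPKM (3.11 to 7.99) for the high group and 5.09 FPKM (2.48 to 7.70) for the low group. Its log2 difference was 0.11, and the intervals overlapped. It was not counted as a member.

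**Figure D2:**
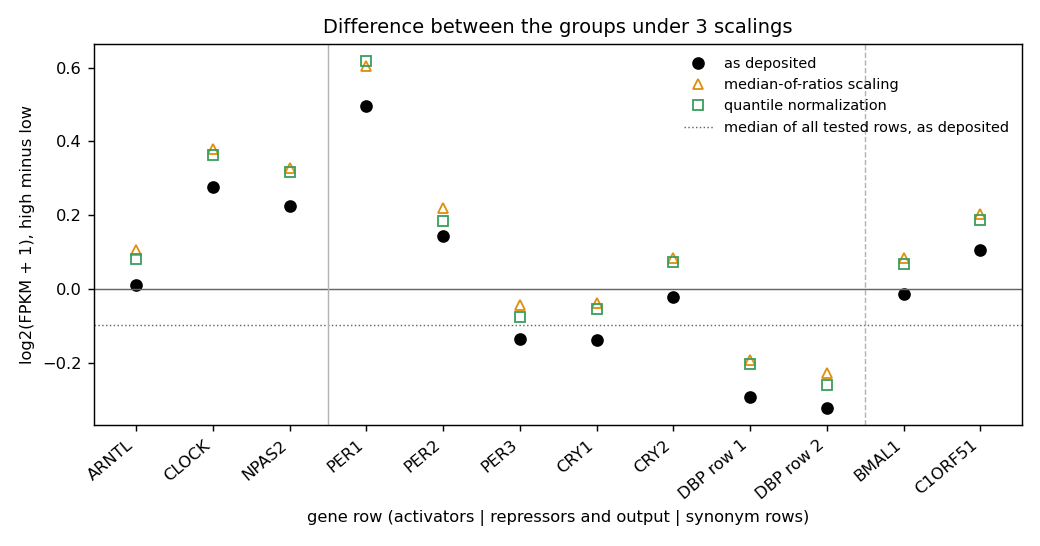
Difference of each clock gene row between the groups, log2(FPKM + 1) of high minus low (vertical axis), as deposited (black), after median-of-ratios scaling (orange) and after quantile normalization (green); the dotted line is the median of all tested rows as deposited, -0.10. PER1 is highest at 0.50, the DBP rows are lowest at -0.29 and -0.32, and CRY2 changes sign with the scaling.

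Seen by role, the 3 activator rows had differences from 0.01 to 0.28 with a median of 0.23. The 7 rows of repressors and output ran from -0.32 to 0.50 with a median of -0.13. The median of repressors and output minus that of the activators was -0.36, a quantity in which a scaling factor of a whole group nearly cancels. It was -0.37 after either scaling, -0.30 with the DBP rows summed and -0.20 with the BMAL1 and C1ORF51 rows added. It describes rows whose intervals all overlap between the groups, and PER1 and PER2 lie on the side of the activators.

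The order of levels was similar in the groups at its ends. In the high group it ran PER1, CRY2, CLOCK, NPAS2, CRY1, DBP (first row), ARNTL, PER3, DBP (second row) and PER2. In the low group it ran PER1, CRY2, DBP (first row), CRY1, CLOCK, NPAS2, DBP (second row), ARNTL, PER3 and PER2. Each row overlapped the next in the order in both groups, so no neighbours were separated. Of the 45 pairs of rows, 17 had intervals apart for the high group and 9 for the low group, and 9 were apart in both. Each of those 9 pairs included PER1 or PER2. In the high group PER1 was apart from 8 of the 9 other rows, CRY2 being the exception, and in the low group from 4. The deposited intervals were narrower for the high group (median half-widths of 38.3% against 44.7%), so these counts are not a like comparison of the groups.

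**Figure D3:**
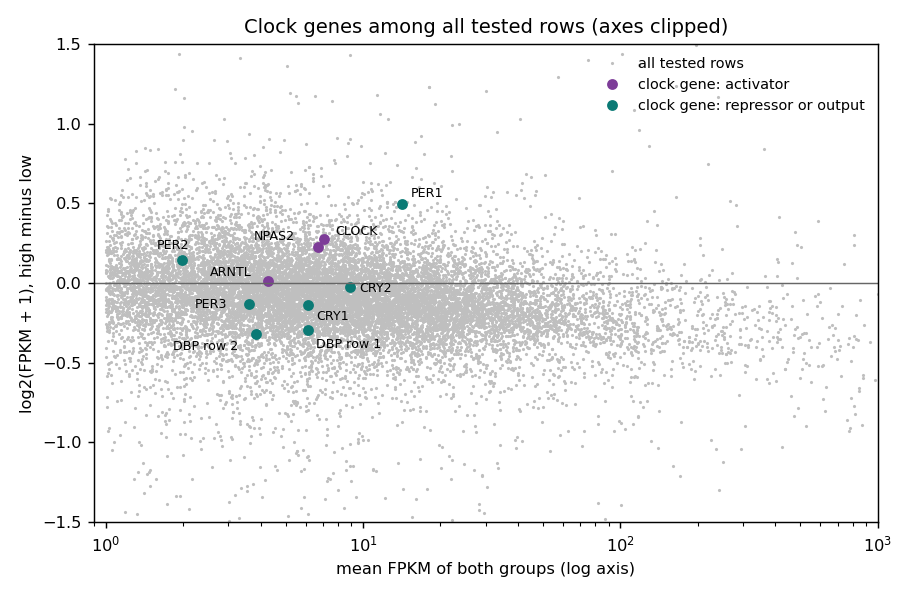
Mean FPKM of both groups (horizontal, log axis) against log2(FPKM + 1) of high minus low (vertical) for all tested rows (grey) and the clock rows (purple, activators; green, repressors and output). The clock rows lie within the cloud of all rows, between -0.32 and 0.50.

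With the half-widths deposited for these rows, the intervals of the groups would part at FPKM ratios from 1.90, for a PER1 level higher in the high group, to 3.38, for a level of the second DBP row higher in the low group. Differences smaller than that could not be seen by this rule. The bounds are the authors', and their confidence level is not given in the sources used here.

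Genes that act next to the set in the loop were mostly lower for the high group in the deposited values, by small amounts, and less so once the shift of all rows was removed. Of 33 listed partners 29 were matched, in 30 rows, and 28 rows were tested. Of these, 5 were higher for the high group and 23 for the low group, with a median of -0.18, and 0 had intervals that did not overlap. After median-of-ratios scaling the split was 8 and 20 and the median -0.07, and after quantile normalization 11 and 17 and -0.03. The E-box repressors BHLHE40 and BHLHE41 had FPKM values of 16.5 against 23.4 and of 17.3 against 23.7 (high against low), log2 differences of -0.49 and -0.44. NFIL3, which competes with DBP at D-boxes, was at 5.76 FPKM (3.56 to 7.95) against 8.85 FPKM (5.17 to 12.5). It was the only partner row past a ratio of 1.5, at 1.54 higher in the low group, and was at 1.42 and 1.44 after the scalings. HLF, a relative of DBP that binds the same elements, was at 7.79 against 10.9 FPKM. DBP, HLF and their competitor NFIL3 all had their lower value in the high group, also under both scalings. In the deposited values 68.0% of all tested rows had their lower value there too. TEF, the other relative of DBP, was not matched.

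The nuclear receptors of the second loop act on ARNTL, REV-ERBs as repressors and RORs as activators. NR1D2 (REV-ERB beta) was at 20.4 against 24.7 FPKM, a log2 difference of -0.27. RORA was at 2.63 against 2.78 FPKM and RORB at 5.46 against 5.27 FPKM. NR1D1 (REV-ERB alpha) was at 37.0 against 40.2 FPKM, with lower bounds of 0 in both groups. The difference of RORA changed sign after median-of-ratios scaling and that of NR1D1 after quantile normalization. The table gives NR1D1 the same locus as THRA, the thyroid hormone receptor alpha gene (93.9 against 99.0 FPKM), so reads of these rows may be mixed and the NR1D1 value is uncertain. ARNTL2, the paralogue of ARNTL, was at 3.01 against 2.36 FPKM, with overlapping intervals.

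Many SCN genes were near or below the filter in these samples. Of 17 listed genes 14 were matched, in 15 rows, and 9 rows passed the filter, with a median difference of -0.06. The scalings disagreed on its sign, 0.01 after median-of-ratios scaling and -0.03 after quantile normalization. VIP, the peptide that couples SCN neurons, was at 2.20 FPKM (0 to 4.49) for the high group and 4.22 FPKM (0 to 8.91) for the low group. SIX6, a transcription factor of the developing SCN and pituitary, was at 2.71 against 1.80 FPKM. Vasopressin, AVP, was at 472 against 354 FPKM, and is made in magnocellular neurons as well as in the SCN. Of the 9 tested SCN rows 3 were higher for the high group and 6 for the low group, and 0 had intervals apart. VIP (higher in the low group) and SIX6 (higher in the high group) were past a ratio of 1.5, also after both scalings. AVP was past it after quantile normalization only, at 1.69. The clock genes were read from all cells of the samples together. In bulk tissue, fewer cells of a type and less RNA per cell cannot be told apart.

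PER1 carries cAMP response elements (CRE) in mammals, through which light and neural activity induce it. Of the 14 listed genes of light input and the CRE pathway 11 were matched and 9 tested, 3 higher for the high group and 6 for the low group, with a median of -0.18. The median was -0.08 after median-of-ratios scaling and -0.09 after quantile normalization, with the same split. The 3 largest differences were all opposite in sign to that of PER1, as were those of 68.0% of all tested rows. DUSP1, a phosphatase induced by stimulation, was at 16.5 FPKM (11.3 to 21.6) against 32.3 FPKM (20.1 to 44.6), a log2 difference of -0.93. SIK1, a kinase that restrains CRE-driven transcription, was at 4.30 against 6.51 FPKM and ADCYAP1, the precursor of the light-input peptide PACAP, at 45.4 against 57.5 FPKM. DUSP1 and SIK1 were past a ratio of 1.5 as deposited, and SIK1 was not after either scaling (ratios of 1.40 and 1.42, low to high). For each of these the intervals overlapped, and whether they differ from PER1 was not tested.

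**Figure D4:**
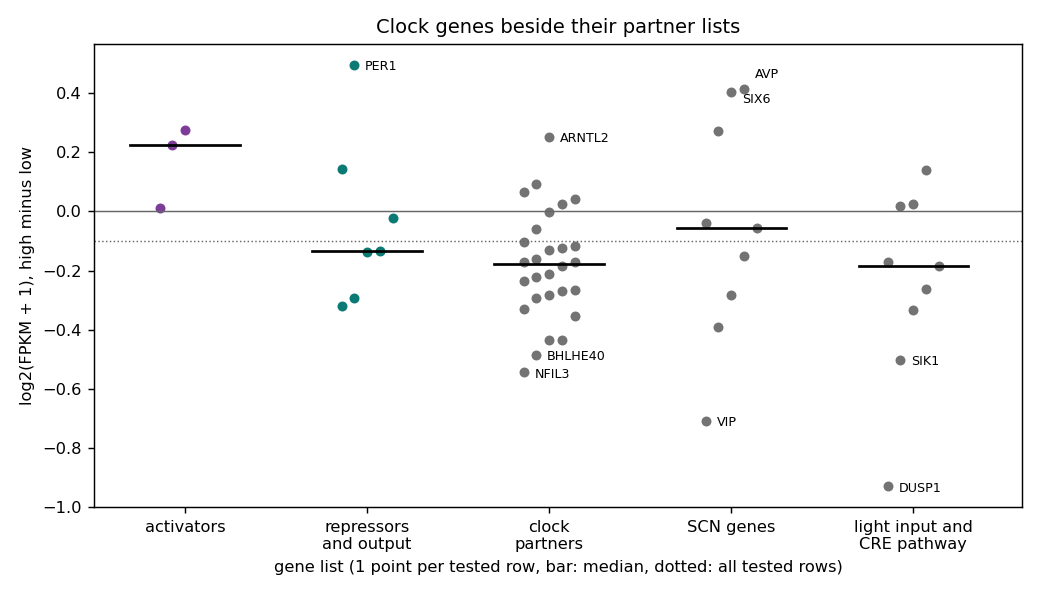
Difference of every tested row, log2(FPKM + 1) of high minus low (vertical axis), for the activators, the repressors and output, and 3 lists of related genes; bars are list medians and the dotted line is the median of all tested rows. List medians run from 0.23 (activators) to -0.18 (clock partners, light input and CRE pathway).

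Hypothalamic genes were listed beside the tissue label, which they cannot check without another tissue to compare. Of these genes 15 of 15 had a row, which depends on gene names alone, and 14 of their 16 rows were tested. Their summed level was 1101 FPKM for the high group and 824 FPKM for the low group, of which AVP alone made 472 and 354 FPKM. By row 10 were higher for the high group and 4 for the low group, among the latter NPY (7.25 against 11.9 FPKM) and POMC (84.0 against 110 FPKM). Several lists of other cells had lower sums in the high group. Fibroblast and meningeal genes summed to 59.8 against 178 FPKM, with 5 of 9 rows apart by their intervals (3 after either scaling). Blood genes summed to 159 against 389 FPKM, with 2 of 3 rows apart (1 after quantile normalization). Oligodendrocyte genes summed to 2854 against 4439.9 FPKM and anterior pituitary genes to 302 against 639 FPKM, with 0 rows apart in either list. PRL alone made 279 and 570 FPKM of the pituitary sums, with bounds of 102 to 1039 FPKM for the low group. Microglial genes summed to 401 against 571 FPKM. In each of these 5 lists no tested row was higher for the high group, in the deposited values or after either scaling. Endothelial genes summed to 24.0 against 28.6 FPKM and choroid plexus genes to 324 against 499 FPKM. In these lists 0 of 3 and 1 of 6 rows were higher for the high group, also after both scalings. By their intervals 0 endothelial rows and 1 choroid plexus row were apart, also after either scaling. TTR alone made 268 and 407 FPKM of the choroid plexus sums. Neuronal markers, of which 4 of 6 were matched, summed to 1073 against 1145 FPKM, and astrocyte markers to 908 against 1055 FPKM with GFAP listed at 0 in both groups under the status HIDATA, which marks a locus with too many reads to estimate. Their direction turned with the scaling. Of 4 neuronal rows 1 was higher for the high group as deposited, 2 after median-of-ratios scaling and 4 after quantile normalization, and of 5 astrocyte rows 1, 3 and 3. The part of these cell types in the clock gene values was not tested.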

How the data were processed

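RNA was extracted with a RiboPure kit and made into paired-end TruSeq libraries for Illumina sequencing, per the labels' protocols. Build Sscrofa10.2 and the tools TopHat2 2.0.5, Cufflinks 2.0.2, Bowtie2, Trim Galore, FastQC and CASAVA were used, per the submitters' processing notes, which give no settings here. The authors deposited FPKM values, 1 per gene row and group, with lower and upper confidence bounds and a status, per the file headers. Values per animal were not analysed here. From these, differences of log2(FPKM + 1) and FPKM ratios were computed (Python 3.11.15, pandas 2.3.3, numpy 2.4.6). Rows needed an estimate above 0 in both groups (58 rows had a status other than OK) and a mean of at least 1 FPKM. A difference was described by intervals that do not overlap and by a ratio of at least 1.5, without p-values. All members were named. A listed partner gene is not reported here. Of the related lists, the nuclear receptors, BHLHE40, BHLHE41, the relatives of DBP and the 3 largest differences per list were named by rule. Others (ARNTL2, THRA, NPY, POMC, HCRT, PMCH, CARTPT, OXT, PRL, GFAP, TTR and the symbols near C1ORF51) were named to explain a row, a count or a sum. Members and lists were chosen with earlier results of these data known. Calling and scaling steps were tested on simulated data. Alternatives were pseudocounts of 0.1 and 0.5, no filter, a 5 FPKM mean and 2 scalings. Reference tables named 963 rows that the file left unnamed.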

Additional observations from a re-analysis of the deposited data

How the results depend on the processing

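Of 10 clock rows, 9 kept the sign of their difference under both other pseudocounts, both other filters and both scalings, where tested, and CRY2 changed sign under both scalings. The count of clock rows past a 1.5-fold ratio went from 0 to 1 (PER1) after median-of-ratios scaling and to 1 after quantile normalization. After these scalings 1318 of 15150 and 1258 of 15142 tested rows were past that ratio, so 1 clock row of 10 is near the share of all rows. Over all tested rows, the 1397 past that ratio became 3790 without a filter, where low rows enter, and 636 with the filter raised to a 5 FPKM mean, which tests fewer rows. Their split by direction, given above, changed with the scaling. Rows with intervals apart numbered 70 as deposited and 47 to 72 under the alternatives, and no clock row was among them under any. The median of the clock rows was 0.09 and 0.08 after the scalings and 0.10 with the raised filter, where 6 clock rows were left. The summed DBP rows and the added BMAL1 and C1ORF51 rows were alternatives chosen after seeing the data. No paired analysis was possible because single animals have no values in the table, and leaving out animals was not run either. What depth limits could not be measured.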

Other observations

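Both DBP rows have close neighbours in the table. The row beside the first, CA11, a carbonic anhydrase-related gene that starts 658 bases after it, was at 27.2 FPKM for the high group and 36.8 FPKM for the low group, a log2 difference of -0.42. The row after the second DBP row, which has no name, starts 1028 bases after it and had a log2 difference of -0.44. The rows before them lie nearer, at 174 bases from the first and 584 bases from the second, and had log2 differences of -0.02 and 0.02. The strand of the rows is not given, and whether reads of neighbours enter the DBP rows was not tested.

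Ratios between clock rows within a group do not depend on the scaling of that group by a single factor. Among the 45 pairs, chosen here after their values were seen, PER1 and the second DBP row changed most, with PER1 at 5.07 times DBP for the high group and 2.65 times for the low group. Against the first DBP row, PER1 was at 3.09 and 1.69 times. These ratios have no deposited bounds.

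AANAT, the enzyme that controls the rhythm of melatonin synthesis in the pineal gland, was at 2.54 FPKM for the high group and 2.22 FPKM for the low group, with overlapping intervals. The other matched pineal genes, TPH1 and CRX, were below the filter.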
